A study of Mus musculus with 9 samples.

Results

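The 10 genes described here are the Toll-like receptor genes Tlr1, Tlr2, Tlr4, Tlr6, Tlr7, Tlr8, Tlr9 and Tlr13, the co-receptor gene Cd14 and the adaptor gene Myd88. They were chosen by symbol from a list of the family, and all 10 were found among the 12003 genes measured. The cells were alveolar macrophages, which live on the air side of the lung, washed out of the airways and purified on magnetic beads against CD11c. RNA sequencing covered 9 libraries, 3 per genotype, and each library was a pool of 5 to 7 untreated C57BL/6 mice, aged 8 to 12 weeks and matched for age and sex. Floxed controls were Vhl(flox/flox) and CD11c (+/+), so both Vhl alleles carried loxP sites and no Cre was present. Cre controls were Vhl(+/+) and CD11c (cre/+), with intact Vhl alleles and the Cre transgene. Vhl knockouts were Vhl(flox/flox) and CD11c (cre/+), so they shared the floxed alleles with one control and the transgene with the other. VHL helps destroy hypoxia-inducible transcription factors when oxygen is present. Dendritic cells also carry CD11c, so both the Cre driver and the beads can reach them.

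Toll-like receptors are membrane proteins that bind conserved parts of microbes. TLR1, TLR2, TLR4 and TLR6 act mainly at the cell surface, on lipoproteins and lipopolysaccharide, while TLR7, TLR8, TLR9 and TLR13 act in endosomes on nucleic acids. CD14 hands lipopolysaccharide to the TLR4 complex, and MyD88 links these receptors to the IRAK kinases and so to NF-kB and interferon regulatory factors. Alveolar macrophages meet inhaled microbes first and rely on these receptors to detect them.

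In Vhl knockout macrophages Tlr4 RNA was higher than in both controls, and RNA of Tlr1, Tlr7, Tlr8, Tlr9 and Myd88 was lower. Of the 10 genes, 1 was called higher and 5 lower by limma (adjusted p under 0.05 after Benjamini-Hochberg adjustment over all genes), and 4 were not called. The called share was 60%, against 39.8% of all genes in the same comparison (19.7% higher, 20.2% lower). The median log2 fold change was -0.37 for the 10 genes and -0.00 for all genes. All 3 knockout libraries lay below all 6 controls for 5 of the genes and above them for 1, while 37.7% of all genes did not overlap (18.5% below and 19.3% above). Among the 5, Tlr1 and Tlr9 were low genes that passed the filter of the deposited values through their controls, and such a filter favours a fall. Against floxed controls alone 1 gene was higher and 5 lower (all genes 34.3% called, 17.5% higher and 16.8% lower), and against Cre controls alone 1 was higher and 6 lower (all genes 34% called, 16.3% higher and 17.7% lower). These comparisons share the knockout libraries. Between the controls 0 of 10 were called by limma (all genes 0.167%, of which 0.0667% higher and 0.1% lower), and likewise 0 by edgeR and by DESeq2. At an unadjusted p under 0.05, 3 differed between the controls (Tlr1, Tlr4 and Tlr9), as did 8.01% of all genes.

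**Figure D1:**
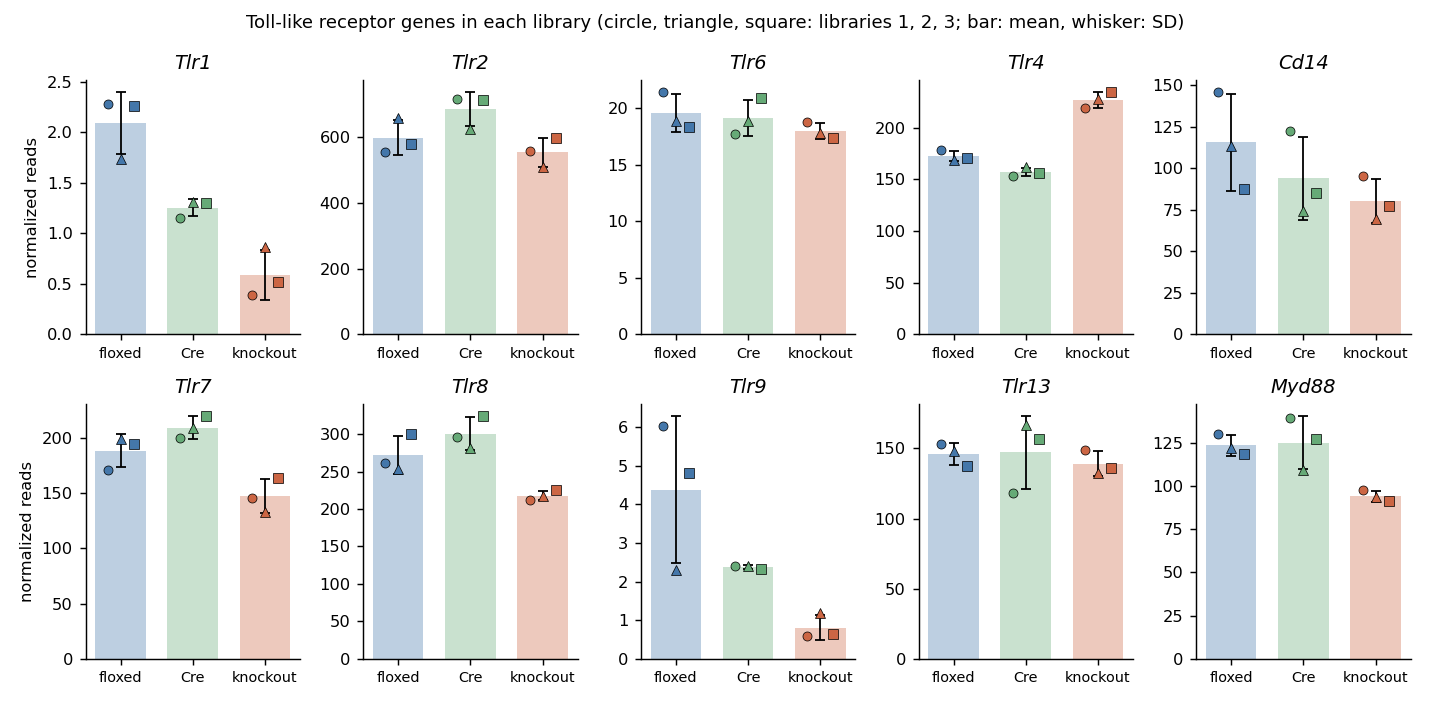
Normalized reads (vertical axes, each from 0) of the 10 genes in floxed controls, Cre controls and Vhl knockouts; points are the 3 libraries of a genotype, bars their mean and whiskers the SD. Tlr4 is the only panel in which all knockout points lie above all control points, while in the panels of Tlr1, Tlr7, Tlr8, Tlr9 and Myd88 all 3 lie below.

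Values are normalized reads, that is reads per gene scaled to library size and not corrected for gene length, and are given as mean ± SD over 3 pools of a genotype or, for controls combined, over 6. Recovered depth was 18201116 to 25861174 reads per library. Vhl itself was at 18.1 ± 3.05 in floxed controls, 23.7 ± 1.69 in Cre controls and 2.23 ± 0.261 in knockouts. All 14 listed alveolar macrophage markers were measured, and their summed level was 28548 to 33627 in controls and 38476 to 51016 in knockouts. Their 2 most abundant were Chil3 and Lpl, and Chil3 carried the rise of the sum. Without Chil3 the others summed to 11601 to 15532 in controls and 12959 to 13968 in knockouts, with overlap. Nothing in the labels says whether the pools of one genotype came from separate experiments, and p-values measure the spread between pools. In RNA from many cells, fewer cells of a type and less RNA per cell cannot be told apart.

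Among the surface receptors, Tlr4 (ENSMUSG00000039005, chromosome 4, 66827584 to 66930284, GRCm38, plus strand), the receptor for lipopolysaccharide, was measured at 178, 169 and 171 normalized reads in the floxed controls and at 153, 162 and 157 in the Cre controls. The knockouts gave 219, 228 and 234. All 3 knockout libraries exceeded all 6 controls, and the knockout mean was 138% of the control mean (165 ± 9.48 against 227 ± 7.73). The log2 fold change was 0.46 (limma SE 0.0454, 95% interval 0.36 to 0.56, adjusted p = 3.46e-05). It was 0.39 against floxed controls (adjusted p = 3.40e-04, limma) and 0.53 against Cre controls (adjusted p = 4.81e-05, limma). The Cre controls lay below the floxed controls in all libraries by a log2 difference of -0.13, which limma did not call (adjusted p = 0.612). The call of Tlr4 held in all 19 alternative settings against each reference.

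Tlr2 (ENSMUSG00000027995, chromosome 3, 83836272 to 83841767), the shared partner of the receptors for bacterial lipoproteins, gave 555, 657 and 579 normalized reads in floxed controls, 716, 625 and 713 in Cre controls, and 556, 508 and 596 in knockouts. The knockout range overlapped that of the floxed controls and lay below that of the Cre controls. Against both controls the log2 fold change was -0.21 (95% interval -0.38 to -0.03, limma adjusted p = 0.0601), so Tlr2 was not called. It was called against Cre controls (log2 fold change -0.31, limma adjusted p = 0.0257) and not against floxed controls (-0.11, limma adjusted p = 0.391). The difference between the controls, which is the test of whether the knockout effect depends on the control, was not called (0.20, limma adjusted p = 0.627). Without Cre control 1 or 3, or without knockout 1 or 2, the call against Cre controls was lost (limma adjusted p of 0.0733, 0.0905, 0.0607 and 0.103). Without floxed control 1 or Cre control 2, Tlr2 was called lower against both controls together (limma adjusted p = 0.0413 and 0.0380), as it was with no normalization factor (0.0197) and by DESeq2 (adjusted p = 0.0289).

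Tlr1 and Tlr6, which each pair with TLR2, are neighbours on the minus strand of chromosome 5 (64924679 to 64933563 and 64952031 to 64960097; ENSMUSG00000044827 and ENSMUSG00000051498). Tlr1 stood at 2.28, 1.74 and 2.26 normalized reads in floxed controls, at 1.16, 1.31 and 1.3 in Cre controls, and at 0.386, 0.868 and 0.520 in knockouts. The genotypes did not overlap, in the order floxed, Cre, knockout. All 3 knockout values lay under 0.962, the level that every measured gene reaches in at least 3 libraries. Tlr1 was thus kept through its control values, and that filter favours a fall in knockouts for genes this low. The Tlr1 values rest on few reads, 9 to 47 per library, and a count of 0 would allow up to 0.120 to 0.170 normalized reads. The knockout mean was 35.3% of the control mean (1.67 ± 0.502 against 0.591 ± 0.249), and the log2 fold change on the log2(value + 1) scale, which understates low genes, was -0.74 (limma SE 0.143, adjusted p = 0.00241). On the recovered reads edgeR gave -1.46 (adjusted p = 0.00343) and DESeq2 -1.48 (adjusted p = 4.15e-04). The log2 fold change was -0.97 against floxed controls (limma adjusted p = 0.00147) and -0.51 against Cre controls (limma adjusted p = 0.0360). The latter call was lost without any 1 of the Cre controls (limma adjusted p of 0.0603, 0.0963 and 0.0977 without libraries 1, 2 and 3) and without knockout 1 (0.121) or 3 (0.10). Between the controls the log2 difference was -0.45 (95% interval -0.82 to -0.08, limma adjusted p = 0.585).

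Tlr6 had 349 to 438 reads per library and gave 21.5, 18.9 and 18.3 normalized reads in floxed controls, 17.8, 18.9 and 20.9 in Cre controls, and 18.8, 17.8 and 17.4 in knockouts. The genotypes overlapped, and the log2 fold change against both controls was -0.10 (95% interval -0.27 to 0.07, limma adjusted p = 0.341). Per kilobase of exon, the Tlr6 level was 8.49 times that of Tlr1 in floxed controls, 13.7 times in Cre controls and 30.7 ± 12.6 times in knockouts, with no overlap between genotypes. The receptors are close paralogs, and reads that match both would be divided between them by the counting tool, so the Tlr1 level carries that uncertainty.

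Cd14 (ENSMUSG00000051439, chromosome 18, 36725067 to 36726798) gave 146, 114 and 87.8 normalized reads in floxed controls, 122, 74.6 and 85.1 in Cre controls, and 95.1, 69.3 and 77.4 in knockouts. The genotypes overlapped, and library 1 was the highest of its genotype in all 3 genotypes. The log2 fold change against both controls was -0.35 (95% interval -0.76 to 0.06, limma adjusted p = 0.161). It was -0.50 against floxed controls (limma adjusted p = 0.0977) and -0.20 against Cre controls (limma adjusted p = 0.512). Against floxed controls Cd14 was called lower by DESeq2 (adjusted p = 0.0328), without floxed control 3 (log2 fold change -0.68, limma adjusted p = 0.0354) and without library 1 of every genotype (-0.44, limma adjusted p = 0.0270).

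**Figure D2:**
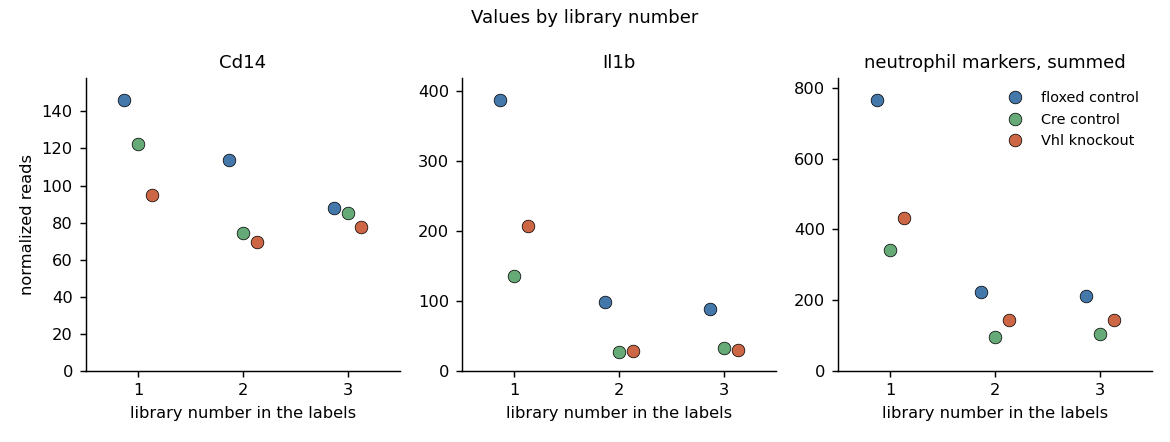
Normalized reads (vertical axes, from 0) of Cd14, of the cytokine gene Il1b and of the 7 measured neutrophil markers summed, against the library number in the labels (horizontal axes); colours are genotypes. Library 1 is highest within each genotype in all 3 panels, for example 765 normalized reads of the neutrophil markers in floxed control 1 against 224 and 213 in floxed controls 2 and 3.

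The summed level of 7 measured of 10 listed neutrophil markers followed the same order, at 765, 224 and 213 normalized reads in floxed controls, 341, 94.5 and 104 in Cre controls, and 431, 144 and 143 in knockouts. Ly6g, Camp and Ngp of that list were not analysed here. Of the 7 measured, 1 was called higher in knockouts (Mmp8, a call that 8 of 19 alternatives lost) and 0 lower, and Csf3r and Mmp8 were the most abundant. Neutrophils also express Cd14, and the part of such cells in the Cd14 values was not tested.

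Among the endosomal receptors, Tlr7 (ENSMUSG00000044583, chromosome X, 167304929 to 167330558) and Tlr8 (ENSMUSG00000040522, chromosome X, 167242696 to 167264329) lie side by side on the minus strand and recognise single-stranded RNA or its breakdown products. Tlr7 gave 171, 199 and 194 normalized reads in floxed controls, 199, 209 and 219 in Cre controls, and 145, 133 and 163 in knockouts. Tlr8 gave 262, 254 and 301 in floxed controls, 297, 281 and 324 in Cre controls, and 212, 217 and 225 in knockouts. For both genes every knockout library lay below every control, and the knockout means were 74.0% (Tlr7) and 76.1% (Tlr8) of the control means.

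The log2 fold change against both controls was -0.43 for Tlr7 (limma SE 0.0749, adjusted p = 0.00127) and -0.39 for Tlr8 (limma SE 0.0669, adjusted p = 0.00125). Against floxed controls they were -0.36 and -0.32 (limma adjusted p = 0.0102 and 0.0105), and against Cre controls -0.51 and -0.46 (limma adjusted p = 0.00149 and 0.00140). These calls held in all 19 alternative settings. The ratio of Tlr8 to Tlr7 per kilobase was 1.65 ± 0.174 in floxed controls, 1.64 ± 0.0893 in Cre controls and 1.70 ± 0.150 in knockouts, and the genotypes overlapped. Because Tlr7, Tlr8 and Tlr13 are X-linked, Xist was read as a sign of female cells. Xist gave 312, 348 and 761 normalized reads in floxed controls, 315, 291 and 210 in Cre controls, and 286, 387 and 436 in knockouts. The knockout range lay within that of the controls only because of floxed control 3, and knockouts 2 and 3 lay above every other control. The Y-linked gene Kdm5d gave 3.21, 3.23 and 5.24 in floxed controls and 3.29, 3.51 and 3.00 in Cre controls. In knockouts it gave 3.39, 3.11 and 2.72, with overlap, and floxed control 3 was the highest for both Xist and Kdm5d. The part of sex in the values of Tlr7, Tlr8 and Tlr13 was not tested.

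Tlr13 (ENSMUSG00000033777, chromosome X, 106143204 to 106160493), a receptor for bacterial ribosomal RNA, gave 153, 148 and 137 normalized reads in floxed controls, 118, 167 and 157 in Cre controls, and 149, 133 and 136 in knockouts. The third X-linked receptor was thus not separated by genotype, with a log2 fold change of -0.07 (95% interval -0.29 to 0.16, limma adjusted p = 0.629). Without library 1 of every genotype it was called lower against Cre controls (-0.27, limma adjusted p = 0.0249), and without Cre control 2 that difference was 0.03.

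Tlr9 (ENSMUSG00000045322, chromosome 9, 106222598 to 106226883), the receptor for unmethylated CpG DNA, showed the steepest fall of the 10. It gave 6.03, 2.30 and 4.81 normalized reads in floxed controls, 2.41, 2.41 and 2.32 in Cre controls, and 0.601, 1.17 and 0.640 in knockouts. Floxed controls 1 and 3 stood above the other controls, and all knockouts stood below every control. The reads behind these values numbered 14 to 111 per library. Knockouts 1 and 3 lay under the filter level of 0.962, so Tlr9, like Tlr1, was kept through its control values. The knockout mean was 23.8% of the control mean (3.38 ± 1.63 against 0.805 ± 0.320), with a log2 fold change of -1.22 on the log2(value + 1) scale (limma SE 0.221, adjusted p = 0.00168). With a pseudocount of 0.1 it was -1.88, and on the recovered reads edgeR gave -2.01 (adjusted p = 0.00160). It was -1.52 against floxed controls (limma adjusted p = 0.00134) and -0.92 against Cre controls (limma adjusted p = 0.0198). The call against Cre controls was lost without Cre control 2 or 3 (limma adjusted p = 0.0559 and 0.0531) and without knockout 1 or 3 (0.0632 and 0.0668).

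Tlr9 is also expressed in dendritic cells, plasmacytoid dendritic cells and B cells, whose markers were therefore read beside it. All 12 listed dendritic cell markers were measured and all 12 were called lower against both controls, while 20.2% of all genes were. Against floxed controls alone 11 were lower (all genes 16.8%), and against Cre controls alone 9 (all genes 17.7%). Xcr1, Clec9a and Cd209a, named because of their values, had all knockout values under the filter level of 0.962 and were kept through their control values. The summed level of the 12 was 131 to 329 normalized reads in controls and 56.2 to 64.9 in knockouts, without overlap, and Ccl22 and Fscn1 were the most abundant. Of 7 plasmacytoid dendritic cell markers 6 were measured (Klk1 was not analysed here). They summed to 15.3 to 30.9 in controls and 13.5 to 18.0 in knockouts, with overlap, and 2 were called lower. Their most abundant, Tcf4, was at 12.5 ± 0.994 in controls and 12.2 ± 1.78 in knockouts. Siglech, a receptor that marks these cells, gave 6.52, 2.61 and 4.57 in floxed controls, 0.834, 0.0523 and 0.283 in Cre controls, and 0.558, 1.33 and 0.640 in knockouts. Like Tlr9 it was highest in floxed controls 1 and 3, while its knockout values overlapped those of the Cre controls. Of the B cell markers, Ighm was at 1.31 to 9.02 in controls, highest in floxed control 1, and at 1.76 to 2.28 in knockouts. The part of these cells in the fall of Tlr9, Tlr1 and the other genes was not tested.

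Of the other marker lists, interstitial macrophage markers (8 of 10 measured, Lyve1 and Folr2 not analysed here, 5 called lower, Mertk and C1qa the most abundant) summed to 396 to 458 in controls and 262 to 279 in knockouts. Against floxed controls alone 5 were lower (all genes 16.8%) and against Cre controls alone 1 (17.7%). The call of C1qa was lost in 7 of 19 alternatives. Against both controls, the reference for the counts here, 19.7% of all genes were higher and 20.2% lower. Monocyte markers (9 of 9 measured, 3 higher and 1 lower, Fn1 and Ace the most abundant) summed to 1956 to 2960 in controls and 2471 to 3130 in knockouts. T and NK cell markers (3 of 9 measured, 0 called by limma, Cd4 and Klrb1c the most abundant) summed to 0.889 to 13.4 and to 3.24 to 4.72. Lung epithelial markers (8 of 10 measured, 1 higher and 2 lower, Cdh1 the most abundant with Scgb1a1) summed to 213 to 421 and to 315 to 363. Among these 4 lists only the interstitial macrophage sum separated knockouts from all controls, and Mertk carried that separation. Without Mertk the list summed to 25.5 to 72.1 in controls and 19.2 to 29.99 in knockouts, with overlap, and the part of these cells in the receptor values was not tested. Of the 14 alveolar macrophage markers 5 were higher and 3 lower (Siglecf, Car4 and Krt79).

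Myd88 (ENSMUSG00000032508, chromosome 9, 119335934 to 119341411, minus strand) gave 130, 122 and 118 normalized reads in floxed controls, 139, 109 and 127 in Cre controls, and 97.6, 93.5 and 91.3 in knockouts. Every knockout library lay below every control, at 75.7% of the control mean (124 ± 10.4 against 94.1 ± 3.16). The log2 fold change was -0.39 (limma SE 0.0734, adjusted p = 0.00198), -0.39 against floxed controls (limma adjusted p = 0.00591) and -0.40 against Cre controls (limma adjusted p = 0.00509), and it held in all 19 alternative settings. Exons of Myd88 overlap those of Acaa1a, a peroxisomal thiolase gene on the opposite strand, over 290 bases. Acaa1a also fell, from 199 ± 15.2 to 156 ± 6.24, a log2 fold change of -0.34 (limma adjusted p = 0.00336). The sources used here do not give the strand setting of the counting, so reads of the shared bases cannot be told apart.

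**Figure D3:**
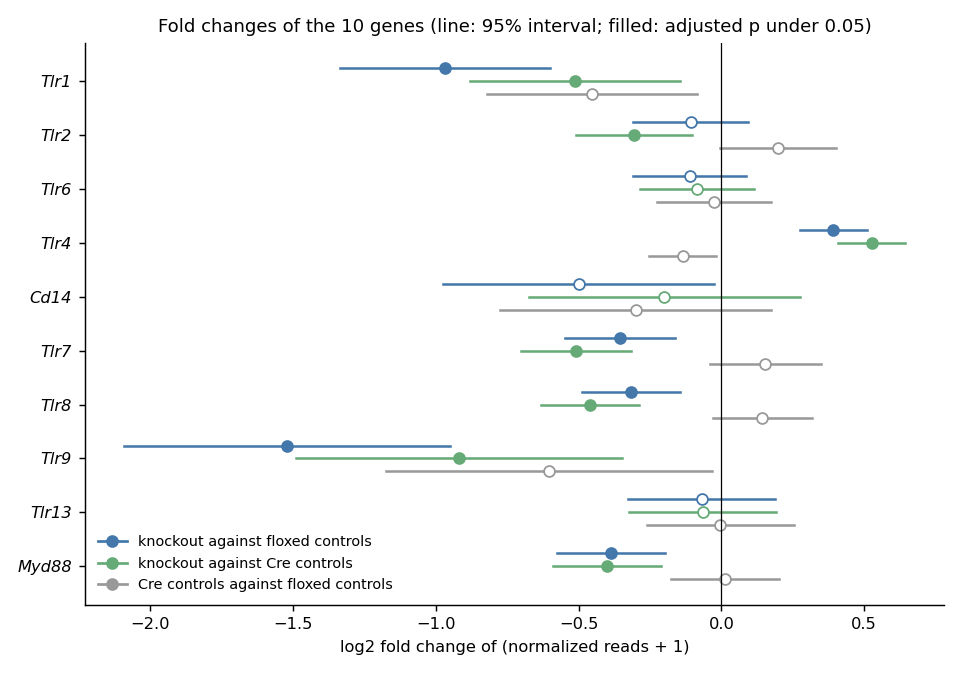
Log2 fold changes of log2(normalized reads + 1) (horizontal axis) of the 10 genes (rows) in 3 comparisons, with 95% intervals from limma; filled points have an adjusted p under 0.05. Filled points stand right of 0 for Tlr4 and left of 0 for Tlr1, Tlr7, Tlr8, Tlr9 and Myd88 against either control and for Tlr2 against Cre controls, and no point of the comparison between the controls (grey) is filled.

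Promoter sequence was looked up for the genes that fell together. RefSeq windows on GRCm38.p6 were matched for 7 of the 10 genes, among them 4 of the 5 that fell, and Tlr4, Tlr7 and Cd14 were not matched. The windows below run 5′ to 3′ on the gene's strand over the 250 bases before the RefSeq start, with motif matches in capitals.
Tlr1 (chr5:64933559-64933808, minus strand): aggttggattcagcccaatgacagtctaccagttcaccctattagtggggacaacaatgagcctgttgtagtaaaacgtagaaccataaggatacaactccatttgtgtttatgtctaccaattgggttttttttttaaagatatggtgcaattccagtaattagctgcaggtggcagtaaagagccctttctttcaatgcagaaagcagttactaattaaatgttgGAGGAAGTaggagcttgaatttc
Tlr8 (chrX:167264330-167264579, minus strand): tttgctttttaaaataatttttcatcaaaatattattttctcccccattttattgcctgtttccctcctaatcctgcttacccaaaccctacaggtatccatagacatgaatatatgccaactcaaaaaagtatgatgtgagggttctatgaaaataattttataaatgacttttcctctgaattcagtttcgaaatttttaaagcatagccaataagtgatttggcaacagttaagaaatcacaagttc
Tlr9 (chr9:106222348-106222597, plus strand): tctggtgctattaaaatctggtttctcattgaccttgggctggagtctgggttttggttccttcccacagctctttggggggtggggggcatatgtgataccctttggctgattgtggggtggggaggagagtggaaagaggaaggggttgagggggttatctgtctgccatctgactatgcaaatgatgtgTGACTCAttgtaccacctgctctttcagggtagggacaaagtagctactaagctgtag
Myd88 (chr9:119340019-119340268, minus strand): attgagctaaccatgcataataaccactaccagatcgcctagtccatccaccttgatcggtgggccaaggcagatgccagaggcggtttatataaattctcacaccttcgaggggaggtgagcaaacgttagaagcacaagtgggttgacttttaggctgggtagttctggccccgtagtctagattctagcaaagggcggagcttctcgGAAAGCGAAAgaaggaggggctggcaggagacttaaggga
The motifs searched on both strands, with N for any base, were ACGTG and GCGTG (the core bound by hypoxia-inducible factors and a relative), GAGGAAGT (PU.1), the interferon response letters (GAAA and GAAA with 2 bases between), the NF-kB letters (GGG and CC with 5 bases between) and TGANTCA (AP-1). In the printed window of Tlr1 there was 1 match, the PU.1 letters 23 to 16 bases before the start. The window of Tlr9 held 1, the AP-1 letters 58 to 52 bases before the start. The window of Myd88 held 1, the interferon response letters 40 to 31 bases before the start, and that of Tlr8 held 0. ACGTG was in 0 of these 4 windows, and no 2 matches in them overlapped. RefSeq gives Tlr1 a second start, whose window (chr5:64932700-64932949, with 211 of its 250 bases in annotated exons, not printed) holds ACGTG on both strands, as 2 overlapping matches 195 to 191 and 194 to 190 bases before that start. Among the genes not called against both controls, 1 window of Tlr6 held the interferon response letters. They stood as 2 overlapping matches, 116 to 107 and 110 to 101 bases before that start. The other Tlr6 window held 1 match of the NF-kB letters, that of Tlr2 held 3, and that of Tlr13 held 0 matches of any motif. Of 32851 RefSeq windows of this length, 16.6% held ACGTG, 28.2% GCGTG, 2.44% GAGGAAGT, 2.98% the interferon response letters, 45.8% the NF-kB letters and 6.75% TGANTCA. The 4 printed windows thus shared no motif. They also differed in CG dinucleotides, with 1 in Tlr1, 1 in Tlr8, 0 in Tlr9 and 9 in Myd88, against a median of 6 over all windows. A match is a match of letters only, and no binding was measured.

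Levels of different genes were compared per kilobase of exon. In all 3 genotypes Tlr2 was the highest of the 10, at 198 ± 17.7 normalized reads per kilobase in floxed controls, 227 ± 17.2 in Cre controls and 184 ± 14.7 in knockouts. Tlr8 was next (75.9, 83.8 and 60.8 per kilobase), then Cd14 (66.9, 54.3 and 46.5). Tlr4 was the gene whose place moved most: it stood in place 7 in both controls (31.1 ± 0.907 and 28.3 ± 0.778 per kilobase) and in place 4 in knockouts (40.9 ± 1.39). Myd88 stood at 47.9, 48.6 and 36.5 and Tlr7 at 46.1, 51.2 and 36.0. Tlr13 stood at 34.0, 34.2 and 32.4 and Tlr6 at 5.25, 5.15 and 4.83. Tlr9 (1.26, 0.684 and 0.231) and Tlr1 (0.626, 0.375 and 0.177) closed the order in every genotype.

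Several neighbours in this order were not separated. In floxed controls the ranges of Tlr8 and Cd14, of Myd88 and Tlr7, of Tlr13 and Tlr4, and of Tlr9 and Tlr1 overlapped. In Cre controls those of Cd14 and Tlr7, of Tlr7 and Myd88, and of Tlr13 and Tlr4 overlapped. In knockouts those of Cd14 and Tlr4, of Myd88 and Tlr7, of Tlr7 and Tlr13, and of Tlr9 and Tlr1 overlapped. Tlr4 lay above Myd88 and Tlr7 in all 3 knockout libraries and below both in every control library.

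**Figure D4:**
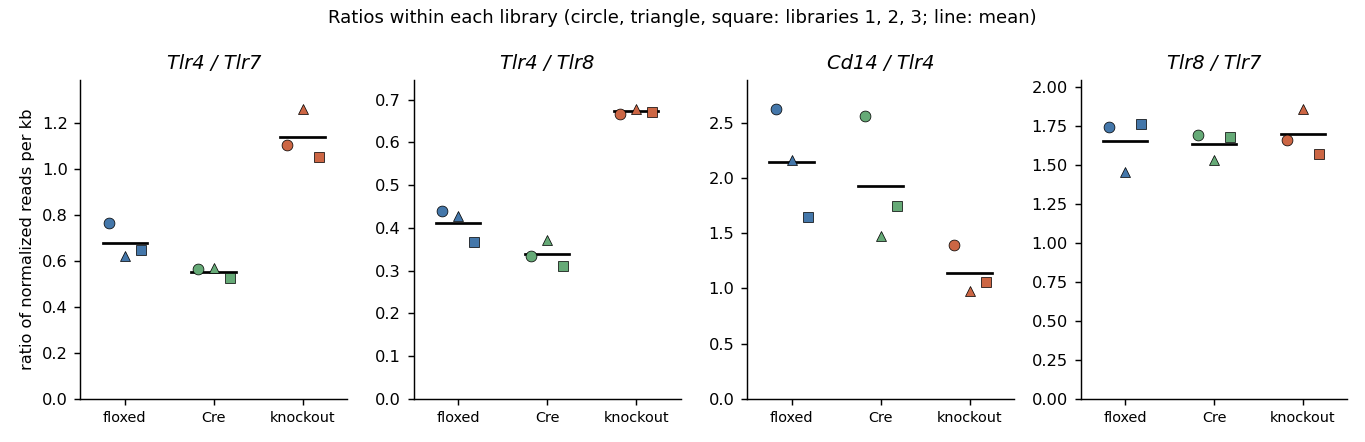
Ratio of normalized reads per kilobase (vertical axes, from 0) between 2 genes of 1 library, by genotype; points are libraries and lines the mean of 3. Tlr4 over Tlr7 lies between 1.05 and 1.26 in knockouts and between 0.524 and 0.766 in controls, Cd14 over Tlr4 is lower in every knockout than in every control, and Tlr8 over Tlr7 overlaps.

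Within a library these shifts changed the balance of receptors. The ratio of Tlr4 to Tlr7 per kilobase was 0.679 ± 0.0767 in floxed controls, 0.553 ± 0.0252 in Cre controls and 1.14 ± 0.109 in knockouts. Tlr4 over Tlr8 was 0.412 ± 0.0388, 0.339 ± 0.0302 and 0.672 ± 0.00644. In both ratios all 3 knockouts lay above all 6 controls, as the opposite moves of the genes fix. Cd14 over Tlr4 was 2.14 ± 0.491, 1.93 ± 0.563 and 1.14 ± 0.222, with all knockouts below all controls.

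Summed per kilobase over 10 receptor genes (the 8 above with Tlr3 and Tlr5), Tlr4 made up 7.71 ± 0.570% in floxed controls, 6.41 ± 0.439% in Cre controls and 11.1 ± 0.60% in knockouts. Tlr2 made up 49.0 ± 2.46%, 51.3 ± 2.30% and 49.6 ± 1.16%, and the genotypes overlapped. The 5 endosomal receptors (Tlr3, Tlr7, Tlr8, Tlr9 and Tlr13) summed to 160 ± 6.22, 173 ± 11.1 and 133 ± 5.28 per kilobase, and their share was 39.7 ± 1.98%, 39.2 ± 2.17% and 35.9 ± 0.652%. Every knockout library lay below every control in both. Tlr7 and Tlr8, each already below every control, were the largest parts of that sum, so this separation follows largely from them. The levels of Tlr3 and Tlr13 overlapped between genotypes. The sum over the 5 surface receptors overlapped, at 244 ± 17.4, 269 ± 17.3 and 237 ± 16.2 per kilobase. These ratios and shares are descriptions and were not tested.

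Of the other Toll-like receptor genes, Tlr3, the receptor for double-stranded RNA, was at 16.2 ± 1.95 normalized reads in controls and 17.3 ± 1.02 in knockouts (limma adjusted p = 0.507). Tlr5, the flagellin receptor, was at 40.5 ± 6.80 and 36.3 ± 5.42 (limma adjusted p = 0.429). Tlr11 was at 0.157 to 1.29 in all libraries, and Tlr12 was not analysed here. Of these 3 measured genes 0 were called in either direction by limma.

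**Figure D5:**
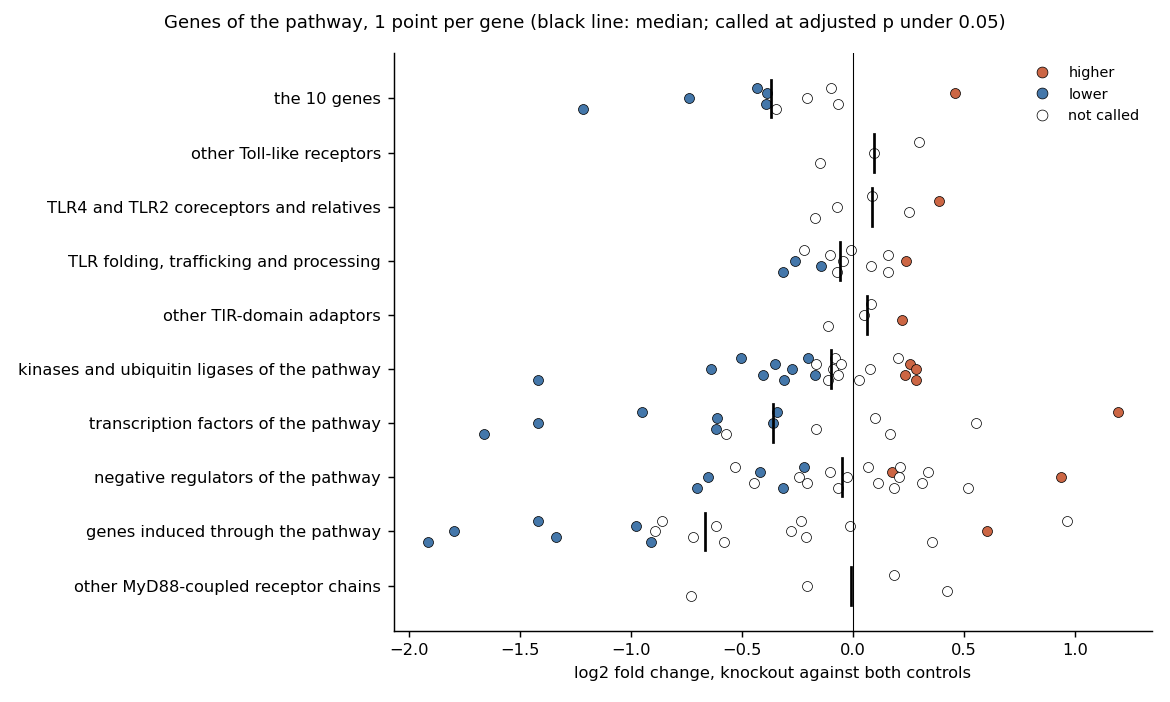
Log2 fold change of knockouts against both controls (horizontal axis) for the measured genes of 10 lists (rows), 1 point per gene; orange and blue points have a limma adjusted p under 0.05 and black lines are medians. The induced genes have the lowest median (-0.67), followed by the 10 genes (-0.37) and the transcription factors (-0.36), an order that does not hold against Cre controls alone (-0.11, -0.35 and -0.38).

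The pathway around the receptors was read from 9 further lists with 103 measured genes of 110. Against both controls 11 of the 103 were called higher and 30 lower by limma, a called share of 39.8%, beside 39.8% of all genes. The split by direction was not alike, as 19.7% of all genes were higher and 20.2% lower. The median log2 fold change of the 103 was -0.11. Against floxed controls 5 were higher and 25 lower (29.1% called, all genes 17.5% higher and 16.8% lower). Against Cre controls 9 were higher and 29 lower (36.9% called, all genes 16.3% higher and 17.7% lower). Between the controls 0 were called (all genes 0.167%).

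For co-receptors and relatives (Tril was not analysed here), 1 of 5 measured was called higher and 0 lower (all genes 19.7% and 20.2%). It was Cd36, a scavenger receptor that helps TLR2 and TLR6, at 540 ± 90.0 normalized reads in controls and 700 ± 79.0 in knockouts (log2 fold change 0.39, limma adjusted p = 0.0421). That call was lost in 7 of 19 alternatives, with no normalization factor, no intensity trend, or without Cre control 1 or 2 or any 1 knockout library (limma adjusted p of at most 0.178). Against Cre controls alone Cd36 was not called (limma adjusted p = 0.202). Cd180 (52.7 ± 3.44 and 46.7 ± 4.85) and its partner Ly86 (23.4 ± 2.51 and 22.2 ± 2.07) were not called.

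In the list of folding, trafficking and processing, 1 of 12 was called higher and 3 lower (all genes 19.7% and 20.2%). Unc93b1, the escort that carries endosomal receptors out of the endoplasmic reticulum, gave 296, 321 and 285 normalized reads in floxed controls, 313, 320 and 327 in Cre controls, and 237, 260 and 249 in knockouts. Every knockout lay below every control, as for Tlr7, Tlr8 and Tlr9 and for 18.5% of all genes. This did not hold for Tlr3 and Tlr13, which the escort also carries. The log2 fold change of Unc93b1 was -0.32 (limma SE 0.0538, adjusted p = 0.00109). This call held in all 19 alternative settings. Ctsb, an endosomal protease (log2 fold change -0.26, limma adjusted p = 0.0430), and Ap3b1, an adaptor subunit (-0.14, limma adjusted p = 0.0477), were lower, but 9 and 10 of 19 alternatives lost these calls, among them leaving out floxed control 1 or 2, Cre control 2 or 3 or any knockout library, and neither was called against floxed controls alone. Cnpy4, a chaperone-like gene, was higher (0.24, limma adjusted p = 0.0165), a call lost without knockout 1 or 3 or library 1 of every genotype (adjusted p of at most 0.115). The protease gene Ctss (3215 ± 277 and 3180 ± 115) and the chaperone gene Hsp90b1 (1032 ± 95 and 960 ± 112) were not called.

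Among the other TIR-domain adaptors (Sarm1 was not analysed here), 1 of 4 measured was called higher and 0 lower (all genes 19.7% and 20.2%). Ticam2, which bridges TLR4 to the TRIF adaptor, was at 56.4 ± 3.80 normalized reads in controls and 65.9 ± 5.60 in knockouts (log2 fold change 0.22, limma adjusted p = 0.0370). The groups overlapped, it was not called against either control alone, and 10 of 19 alternatives lost this call, among them leaving out floxed control 2 or 3, Cre control 1 or 2, or knockout 1 or 2. Tirap, which recruits MyD88 to TLR2 and TLR4, was at 38.0 ± 3.28 and 35.1 ± 4.15, and Pik3ap1 at 689 ± 73.0 and 724 ± 12.3. Neither was called. The difference between Myd88 and the other adaptors was not tested.

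Kinases and ubiquitin ligases had 4 of 22 higher and 9 lower (all genes 19.7% and 20.2%). The kinase gene Ikbke fell from 19.3 ± 4.94 to 6.39 ± 0.789 (log2 fold change -1.42, limma SE 0.214, adjusted p = 5.54e-04). Peli2, a ligase of the Pellino family that acts on IRAK kinases, fell from 49.6 ± 2.96 to 31.5 ± 2.82 (-0.64, limma adjusted p = 9.14e-05). The ligase gene Traf3 fell from 39.0 ± 3.01 to 27.2 ± 3.71 (-0.51, limma adjusted p = 0.00163), and Ube2v1 from 95.1 ± 8.55 to 76.2 ± 6.83 (-0.31, limma adjusted p = 0.00603). Against both controls these 4 calls held in all 19 alternatives, but against floxed controls alone Ube2v1 was not called (-0.22, limma adjusted p = 0.0594) and its libraries overlapped. Irak1, a kinase that MyD88 recruits, was at 124 ± 6.49 and 115 ± 1.66, and Btk at 121 ± 4.20 and 128 ± 1.17, and neither was called. The 4 that rose were Irak2, Traf6, Ikbkb and Map3k8, by log2 fold changes of 0.25, 0.28, 0.28 and 0.23, which are named because of their values. Of these only Ikbkb was called against each control alone. Irak2 and Map3k8 were not called against floxed controls (limma adjusted p = 0.0977 and 0.0994). Traf6 was called against neither floxed nor Cre controls alone (limma adjusted p = 0.0778 and 0.0657). With no normalization factor 1 of the list was called higher.

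Transcription factors had 1 of 13 higher and 7 lower (all genes 19.7% and 20.2%), with a median log2 fold change of -0.36. Irf5, which MyD88 signalling activates, gave 117, 91.1 and 86.8 normalized reads in floxed controls, 89.9, 98.0 and 89.1 in Cre controls, and 29.5, 30.2 and 28.0 in knockouts. Every knockout lay below every control. Its log2 fold change was -1.67 (limma SE 0.0897, adjusted p = 4.63e-07). Irf7, the factor that TLR7 and TLR9 use to induce type I interferon, fell from 15.0 ± 3.49 to 5.04 ± 1.84 (-1.42, limma adjusted p = 5.22e-04), Relb from 35.8 ± 6.94 to 17.8 ± 1.42 (-0.95, limma adjusted p = 8.60e-04) and Irf8 from 129 ± 5.47 to 102 ± 2.20 (-0.34, limma adjusted p = 3.83e-04). These 4 calls held in all 19 alternatives. Rela (89.8 ± 2.72 and 96.3 ± 3.36) and Fos (218 ± 66.5 and 330 ± 145) were not called, but Fos was without knockout 1 (0.91, limma adjusted p = 0.0363) and without library 1 of every genotype (0.67, limma adjusted p = 0.00956). The other 3 that fell were Nfkb1, Nfkb2 and Rel, and the 1 that rose was Jun, an immediate early gene (61.9 ± 27.3 and 140 ± 53.4), all named because of their values. Against floxed controls alone Jun was not called (limma adjusted p = 0.0510), and its libraries overlapped. Without knockout 3, 0 factors were called higher by limma.

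Negative regulators had 2 of 22 higher and 5 lower (all genes 19.7% higher and 20.2% lower). Sigirr, an inhibitory receptor of the same superfamily, rose from 1.45 ± 0.545 to 3.61 ± 0.199, a log2 fold change of 0.94 (limma adjusted p = 0.00215). Tnip1, a partner of the A20 protein, fell from 88.9 ± 13.5 to 55.8 ± 5.89 (-0.65, limma adjusted p = 0.00267), Nfkbie from 25.9 ± 2.95 to 19.0 ± 0.496 (-0.42, limma adjusted p = 0.00584) and Trim30a from 84.8 ± 3.5 to 67.9 ± 1.09 (-0.32, limma adjusted p = 6.65e-04). Dusp1 (118 ± 48.3 and 164 ± 63.3) and Zfp36 (167 ± 22.8 and 165 ± 38.1) were not called. Dusp1 was called higher without Cre control 3 (0.66, limma adjusted p = 0.0305) and without knockout 1 (0.75, limma adjusted p = 0.0408).

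Genes that the pathway induces had 1 of 18 measured higher and 6 lower (all genes 19.7% and 20.2%). Their median log2 fold change was -0.67, and Il6, Il10 and Ifnb1 were not analysed here. The median was -1.08 against floxed controls and -0.11 against Cre controls, with 7 and 6 of 18 lower (all genes 16.8% and 17.7%). Icam1, an adhesion molecule, gave 150, 180 and 127 normalized reads in floxed controls, 127, 150 and 168 in Cre controls, and 60.5, 59.9 and 54.8 in knockouts. Its log2 fold change was -1.34 (limma SE 0.113, adjusted p = 1.10e-05), and every knockout lay below every control. Il12b, a cytokine subunit gene that dendritic cells also express, fell from 5.46 ± 2.65 to 0.595 ± 0.143 (-1.92, limma adjusted p = 3.06e-04) and the chemokine gene Ccl5 from 8.62 ± 2.65 to 2.48 ± 0.252 (-1.42, limma adjusted p = 3.28e-04). All knockout values of Il12b lay under the filter level of 0.962. Il12b was thus kept through its control values, and that filter favours a fall. The cytokine gene Tnf had a log2 fold change of -1.80 (limma adjusted p = 4.06e-05). The 1 called higher, named because of its value, was the inflammasome sensor gene Nlrp3 (84.2 ± 14.9 and 127 ± 9.24). The summed level of the dendritic cell markers was lower in every knockout than in every control, as given above. The part of dendritic cells in these falls was not tested.

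Il1b was at 387, 98.2 and 88.7 normalized reads in floxed controls, 136, 26.5 and 32.2 in Cre controls, and 208, 28.9 and 30.3 in knockouts, and it was not called (log2 fold change -0.58, limma adjusted p = 0.575). Library 1 was highest in every genotype, as for Cd14 and the neutrophil markers. Acod1, another induced gene, was likewise not called (43.9 ± 41.3 and 34.8 ± 44.6). Without library 1 of every genotype, 3 of the induced genes were called higher and 11 lower, Il1b and Acod1 among the latter (limma adjusted p = 1.90e-04 and 3.56e-04). Of the other receptor chains that couple to MyD88 (Il1rl1 was not analysed here), 0 of 4 measured were called by limma, and Il1rap was at 45.9 ± 5.15 and 39.5 ± 3.88 and Il18rap at 5.81 ± 4.20 and 7.02 ± 1.88.

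Across the 9 libraries, the genes whose log2 values were most like those of Tlr4 were Jund (Pearson r = 0.986), Thbd (0.986) and Amot (0.985). Jund, an AP-1 subunit, was at 124 ± 10.4 normalized reads in controls and 175 ± 3.64 in knockouts, and Thbd, the thrombin receptor thrombomodulin, at 35.5 ± 4.21 and 123 ± 15.2. The genes most like Tlr9 were Kcnj10 (r = 0.973), Stat2 (0.972) and Itgae (0.967). Itgae, one of the dendritic cell markers above, gave 19.9, 9.11 and 17.4 in floxed controls, 9.49, 13.2 and 12.2 in Cre controls, and 3.52, 4.95 and 4.20 in knockouts. The 9 points share the 3 genotypes, so any gene that differs between knockout and control correlates with these, and no p is given.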

How the data were processed

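Poly(A) RNA of 9 pools of mouse alveolar macrophages was sequenced as single reads of 61 bases, and RNA with an integrity value above 8 was used, per the labels' protocols. CASAVA 1.8.2, cutadapt 1.3 and RSEM 1.2.3 are named with the GRCm38 build, per the submitters' processing notes; the sources used here name no annotation or later step. In 1 table the authors deposited, the signal is reads scaled to library size after a normalization factor, called normalized reads (100% of values were whole reads within 0.01 read once the scale was removed). Each gene in it reaches 0.962 in at least 3 libraries, a filter that limits low receptors and rare-cell markers. No column was left out (0 columns). Symbols and exon lengths came from GENCODE M21 (11935 identifiers named, 68 not).

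Values were tested as log2(value + 1) with limma 3.58.1 in R 4.3.3 (intensity trend, no filter, 1 mean per genotype, all 9 libraries, two-sided, Benjamini-Hochberg over 12003 genes); the planned count test served as an alternative, with edgeR 4.0.16 and DESeq2 1.42.0 on the recovered reads. The script was checked on simulated data. The 9 pairs of libraries of 1 genotype all differed beyond counting noise. The 95% intervals come from limma and, like its p-values, measure the spread between pools. Floors (3 reads) cover counting error only. The 10 genes and all lists were chosen with earlier results of these data known. Genes named are the 10, Vhl, per list up to 4 with the smallest adjusted p among those called and up to 2 abundant ones not called, the 3 most correlated with the steepest riser and faller, and the 2 most abundant markers per list; others are said to be named because of their values.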

Additional observations from a re-analysis of the deposited data

How the results depend on the processing

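Across the alternatives run (pseudocounts 0.1 and 0.5, a mean of at least 5, no normalization factor, DESeq2 size factors, edgeR, DESeq2, no intensity trend, a replicate block and left-out libraries), 710 of 752 fold changes of the 10 genes kept their direction and call, 16 lost a call, 10 gained one and 16 changed sign. With a mean of at least 5, where Tlr1 and Tlr9 were not tested, 3 genes were lower against both controls and 3 against floxed controls. Leaving out 1 library gave 3 to 6 lower against Cre controls, and 3 came without Cre control 3 or knockout 1. Between the controls, 20 genes of all were called, 74 by DESeq2, 147 without library 1 of every genotype and 13 (without Cre control 3) to 31 (without Cre control 1) with 1 library left out. Pathway genes called higher numbered 5 with no normalization factor, 6 to 10 with 1 library left out and 12 without library 1 of every genotype, against 11. With no normalization factor, the split against floxed controls was 1635 higher and 2540 lower, against 2099 and 2013; the cause was not tested. Sign changes were all in log2 differences that were not called. For Cre against floxed controls, leaving out 1 library gave -0.0862 to 0.0398 for Tlr6, -0.0998 to 0.147 for Tlr13 and -0.0665 to 0.109 for Myd88. Without library 1 of every genotype these were 0.0907, 0.181 and -0.0288. Tlr13 was also at 0.0106 (edgeR) and 0.000604 (DESeq2), and Myd88 at -0.0287 (no normalization factor). For knockout against Cre controls, leaving out 1 library gave -0.217 to 0.0307 for Tlr13 and -0.349 to 0.00418 for Cd14. Library numbers pair no samples by the labels, and correlations of same-numbered deviations ran from -0.0817 to 0.575. With the replicate block 4898 genes were called against both controls (4781 without it) and 71 between the controls; Cd14 was then lower against both (adjusted p = 0.0174, limma) and floxed controls (0.00769), and Tlr1 was not called against Cre controls (0.0566). Depth limits Tlr1 and Tlr9 most.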
